A study of Oryza sativa Japonica Group with 12 samples.

Results

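The comparison described here set panicles of the rice mutant female-sterile (fst) against wild-type (WT) panicles at 5 days after pollination (DAP). It took in all 57258 probe sets of the Affymetrix rice array other than the 123 controls, on 3 arrays of each genotype out of the 12 arrays of the series. Of these probe sets, 22436 were assigned to 1 gene in the annotation used, 95 to several and 34727 to none, which left 17905 genes, 2458 of them with a name other than a locus number. The fst group was the spontaneous mutant, which the labels also call cyn, in the cultivar Junambyeo. It carries a small deletion that shifts the reading frame of FST, the B-sister MADS-box gene OsMADS29 (LOC4328443, chromosome 2), and it sets no seed. Its ovules can be fertilised, and the young embryo and endosperm then arrest and degenerate, the arrest falling close to the stage sampled. The WT group was Junambyeo at the same stage. Plants of both genotypes grew in a greenhouse in natural light, and each RNA sample pooled 20 panicles from 10 plants, so that ovaries, glumes and panicle branches were measured together. The other 6 arrays held fst and WT panicles before flowering. The study reports that the mutant gene still produces a transcript, though a non-functional one, so the signal of FST cannot tell whether the labels are right. In addition, 1 label of the mutant arrays reads as wild lines while their titles and genotype fields name the mutant. The titles were followed, and the summed signal of endosperm markers given below was lower on all arrays titled as the mutant.

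In a fertilised rice floret the ovary becomes a grain, in which a starchy endosperm and an embryo grow inside maternal layers, the nucellus, the integuments and the pericarp. In the first days the endosperm is a dividing tissue, and genes for storage proteins, starch synthesis and protein folding are then switched on in it. Where embryo and endosperm arrest early, glumes, lodicules and the carpel remain in the panicle. In a bulk panicle sample, a lower signal from fewer cells of a type cannot be told apart from a lower signal per cell, and this holds for every value given here.

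The values were signals summarised by robust multi-array average (RMA), an arbitrary linear scale on which probe sets of different genes cannot be compared with each other. Changes are given as fst minus WT in log2 units with the standard error (SE) of the fit, and a probe set was called when its limma p adjusted over all 57258 probe sets was under 0.05. Array medians lay between 30.8 and 32.7 at 5 DAP. The fst array 3 stood apart, with an estimated array weight of 0.309, the lowest of the 12, and the lowest median. It was the highest of the 3 fst arrays in 2351 (66.1%) of the 3559 probe sets called higher in fst. Without it, 2729 probe sets were called higher and 2790 lower, and 4851 of these were called with it. No detection calls, scan dates or batches are given in the sources used here. The titles number the arrays of a group as biological replicates, and the study's methods describe 3 independent ones. The labels do not say whether the 3 pools of a genotype came from separate sets of plants, so p-values measure the spread between these samples. With 3 arrays against 3, an exact two-sided permutation test of 1 gene cannot go below p = 0.1, so only the fit over all probe sets was used.

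At 5 DAP, 6655 of 57258 probe sets (11.6%) differed between fst and WT, 3559 (6.22%) higher and 3096 (5.41%) lower in fst. At an unadjusted p under 0.05 there were 13089. Most of these changes were small, and their direction changed with their size. Rises made up 61.2% of the 2506 probe sets called with a change of 1.5- to 2-fold, whereas falls made up 63.7% of the 1171 called with 2 to 4-fold and 97.4% of the 152 called with 10-fold or more. The class of 1.5- to 4-fold held 3677 probe sets (6.42%), 1959 higher and 1718 lower, which came from 1322 and 1042 genes. The class of 4-fold or more held 378 (0.66%), 26 higher and 352 lower, from 17 and 179 genes. The study's own tables hold 288 probe sets of the second class and 5 of the first, so the moderate changes lie almost wholly outside those tables. The median change was 0.62 among probe sets called higher and -0.77 among those called lower, against 0.01 over all probe sets. Before flowering 2644 probe sets (4.62%) differed between the genotypes, and for 3636 (6.35%) the change at 5 DAP differed from that before flowering in a test of the interaction of genotype and stage.

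**Figure D1:**
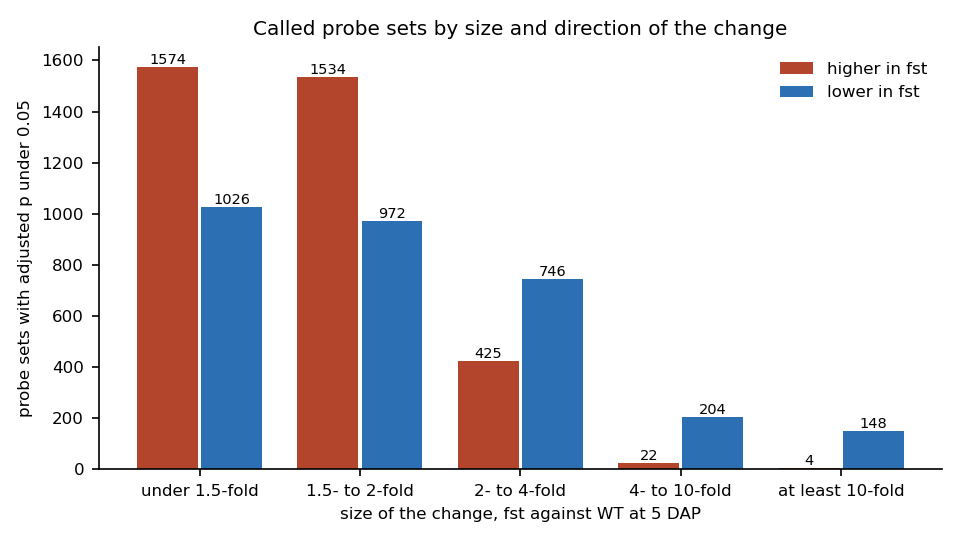
Probe sets with adjusted p under 0.05 in fst against WT at 5 DAP (y axis, number of probe sets) by the size of the change (x axis, linear fold), higher in fst (left bars) and lower in fst (right bars). Rises outnumber falls by 1574 to 1026 below 1.5-fold and by 1534 to 972 between 1.5- and 2-fold, and falls outnumber rises by 148 to 4 at 10-fold or more.

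FST itself had signals of 1378, 1058 and 1340 in fst, against 1268, 1523 and 1263 in WT. The groups overlapped and the change was not called (log2 -0.11, adjusted p = 0.717). Before flowering FST was higher in fst (0.98, adjusted p = 0.000928), and the interaction with stage was called (-1.09, adjusted p = 0.00326).

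Outside the study's tables, the largest rise with arrays of the groups apart belonged to LOC4325422, a gene of chromosome 1 that has only a locus number in the annotation used, as have the other genes named here by LOC. Its signals were 47.2, 54.8 and 150.4 in fst, against 7.18, 8.45 and 10.02 in WT (log2 change 3.11 ± 0.32, adjusted p = 3.99e-05), with fst array 3 well above the other fst arrays. Without that array the log2 change was 2.59, and over all arrays left out in turn it lay between 2.59 and 3.42. The next rises were similar to each other in size. LOC4324344 gave 1465, 1583 and 1650 in fst, against 345, 449.9 and 431 in WT (log2 change 1.94 ± 0.14, adjusted p = 2.06e-06). LOC4330554 on chromosome 2 was the most even of them, at 463, 550.5 and 496 in fst, against 135, 147 and 132 in WT (log2 change 1.87 ± 0.11, adjusted p = 2.75e-07). LOC4347962 on chromosome 10 gave 266, 333 and 363 in fst, against 78.5, 74.0 and 97.6 in WT (log2 change 1.94 ± 0.14, adjusted p = 2.49e-06). Every fst array exceeded every WT array in these 3 genes, and the same held for LOC4336904 (log2 1.92), LOC4332309 (1.89), LOC4350320 (1.87), LOC4349982 (1.86) and LOC4326573 (1.86). Separate arrays were a condition for naming these genes, and 6569 of all 6655 called probe sets had them. LOC4324968 also had separate arrays and a log2 change of 1.91, but its adjusted p of 0.0489 did not hold without fst array 2, fst array 3 or any WT array, with values of up to 0.168.

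Among genes with a name, the moderate rises with the smallest adjusted p fell into several functions. OsNramp5, known as a transporter that takes up manganese and cadmium in rice roots, had signals of 2175, 1988 and 2226 in fst, against 819, 724 and 590.2 in WT (log2 change 1.59 ± 0.14, adjusted p = 1.32e-05), so that all fst arrays lay more than 2-fold above all WT arrays. OsCASPL2C1, a membrane protein of the CASP-like family, gave 2709, 3085 and 3188 in fst, against 1302, 1304 and 1413 in WT (log2 change 1.16 ± 0.10, adjusted p = 1.02e-05). OsDRB1, a protein that binds RNA duplexes, had 53.6, 59.8 and 68.2 in fst, against 25.7, 22.1 and 24.9 in WT (log2 change 1.32 ± 0.13, adjusted p = 3.15e-05), again without overlap. PLA2-III, a secreted phospholipase, rose by 1.25, the gene annotated HIRL2 by 1.14 and NDH-M, a subunit of the plastid NADH dehydrogenase-like complex, by 0.97 log2 units. Heat shock factor HSFC2A, the auxin response factor ARF3, the trehalose-6-phosphate phosphatase OsTPP4 and the protein kinase OsCIPK01 belonged to the same group and are described with their families.

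The largest falls on probe sets outside the study's tables were seed genes or genes with only a locus number. They are not all new genes, since the study lists other probe sets of WX, RAG2 and PROLM25. The probe sets of LOC9270227 and LOC4329275 share an identifier stem with probe sets that the study annotates as CRA1 and a glutelin type-A precursor. LOC9270227 on chromosome 12 had signals of 19.5, 27.9 and 16.88 in fst, against 8323, 19500 and 14770 in WT (log2 change -9.32 ± 0.27, adjusted p = 5.36e-10), and LOC4329275 on chromosome 2 had 12.3, 8.78 and 9.22 in fst, against 1235, 5050 and 3603 in WT (log2 change -8.14 ± 0.37, adjusted p = 3.1e-08). Both were dim on all 3 fst arrays, and WT array 1 was the lowest of the WT arrays in both. Leaving out WT array 1 moved the second change to -8.74 and leaving out WT array 2 moved it to -7.72. LOC4324532 gave 14.7, 7.12 and 6.52 in fst, against 265, 1021 and 723 in WT (log2 change -6.04 ± 0.40, adjusted p = 1.04e-06; between -6.61 without WT array 1 and -5.63 without WT array 2). LOC4328715 (log2 -5.07, from -5.73 without WT array 1 to -4.62 without WT array 2), LOC4350789 (-4.21, from -5.09 to -3.64 under the same omissions) and LOC4346728 (-3.88, from -4.35 to -3.45) followed. WT array 1 was the lowest WT array in 297 (84.4%) of the 352 probe sets called at least 4-fold lower, and WT array 2 was the highest in 255 (72.4%). In the same probe sets fst array 1 was at least 2-fold above both other fst arrays in 77, which held for fst array 2 in 0 and for fst array 3 in 1.

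**Figure D2:**
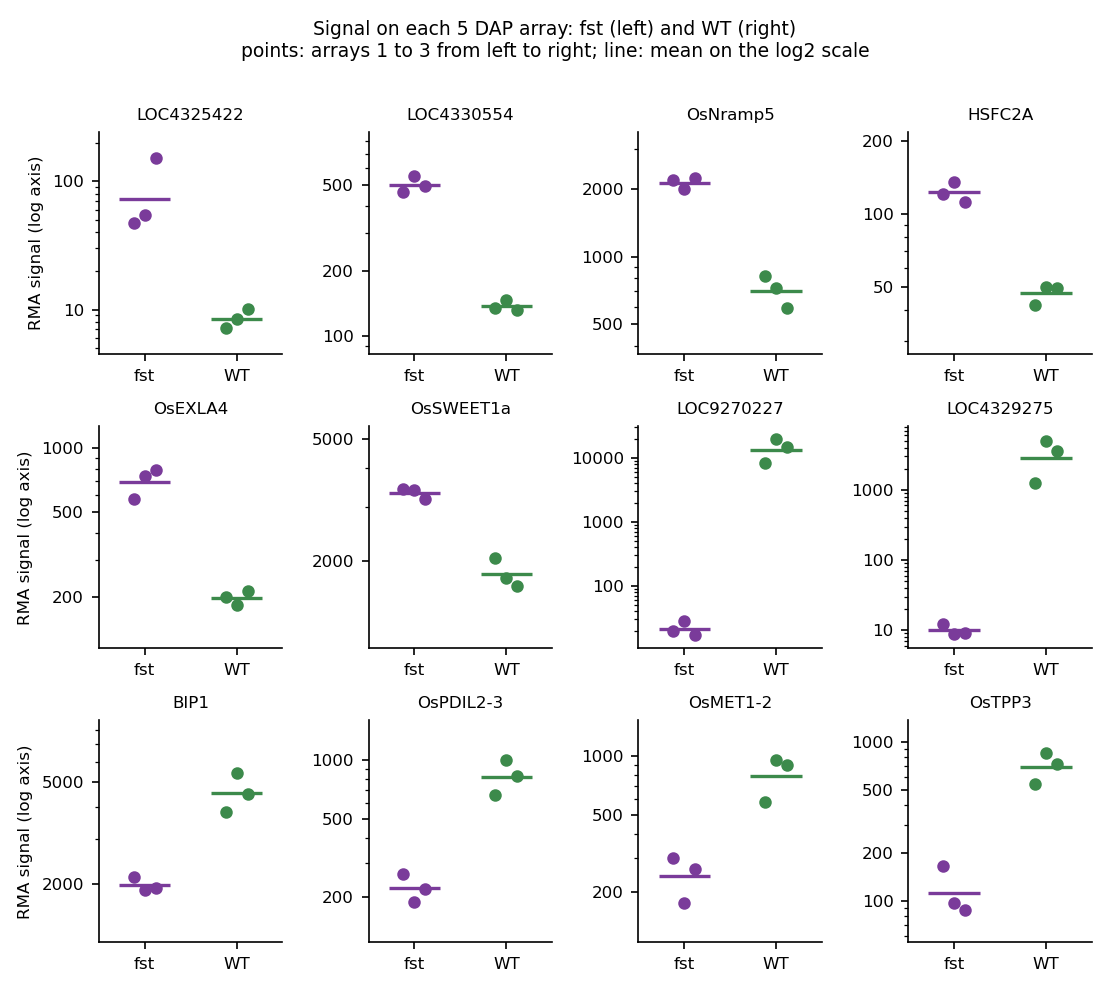
Signals of 12 genes on the 5 DAP arrays (y axis, RMA signal, logarithmic; each panel has its own scale), fst on the left and WT on the right of each panel; points are arrays 1 to 3 and the line is the mean on the log2 scale. Groups do not overlap in any panel, as in 6569 of all 6655 called probe sets. Signals range from 463 or more against 147 or less in LOC4330554 to 27.9 or less against 8323 or more in LOC9270227.

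Marker genes of the tissues a panicle could hold were fixed as lists. Of 7 endosperm markers found, 5 were lower in fst, and their summed signal was 209 to 671 on fst arrays, against 6877 to 18270 on WT arrays. Of 6 embryo markers 2, RAB21 and RAB16D, were lower, with sums of 1325 to 1463 in fst and 1985 to 2460 in WT. That gap rested on RAB21, at 281 to 342 in fst and 1055 to 1084 in WT, and the sums of the other embryo markers overlapped. RAB21 was lower in fst before flowering too (-0.94, adjusted p = 0.00897). None of 4 anther and pollen markers was called, and their sums were 61.3 to 80.2 in fst and 57.6 to 64.0 in WT. In green husk 1 of 5 markers was higher, with sums of 22640 to 26660 in fst and 24410 to 26980 in WT, and in floral organs 3 of 9 were higher, with sums of 25620 to 26540 in fst and 19940 to 23150 in WT. Each sum is weighted towards its brightest probe sets, such as CAB2R in green husk and OsMADS1 in floral organs, and does not measure an amount of tissue. The embryo marker OSH1, a homeobox gene of meristems that panicles also express, was not lower (0.45, adjusted p = 0.219). How far the makeup of the panicles moved the gene groups below was not tested.

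To describe families that the study's tables do not list, 49 lists of genes were read, each gene by the probe set with the highest mean signal. They held 1428 distinct genes, of which 388 were called, 223 higher and 165 lower in fst; 28 of the 1428 were on a probe set in the study's tables. Over all 17905 genes, 3901 (21.8%) were called by the same rule, 2158 (12.1%) higher and 1743 (9.73%) lower, with a median log2 change of 0.03. The highest shares of lower genes were 8 of 11 seed storage genes, 17 of 32 heat shock proteins, 4 of 8 late embryogenesis genes and 23 of 62 replication and mitosis genes, and the highest shares of higher genes were 7 of 15 brassinosteroid genes, 4 of 9 lipid genes, 3 of 8 NAC factors and 24 of 68 auxin genes. Arrays of the groups were apart in 385 of the 388, so separate arrays add little to a call. Quantile normalization lost 15 of the 388 calls and median centring of the arrays 17. No sign changed, but these rescalings shifted the median change by only 0.008 and 0.037. Of the 388 calls, 251 stayed under the threshold when any 1 array was left out and 137 did not. Counts of 5 or fewer calls in a direction then moved by at most 2 genes, apart from those of redox, kinesin, auxin and gibberellin genes, which moved by 3.

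**Figure D3:**
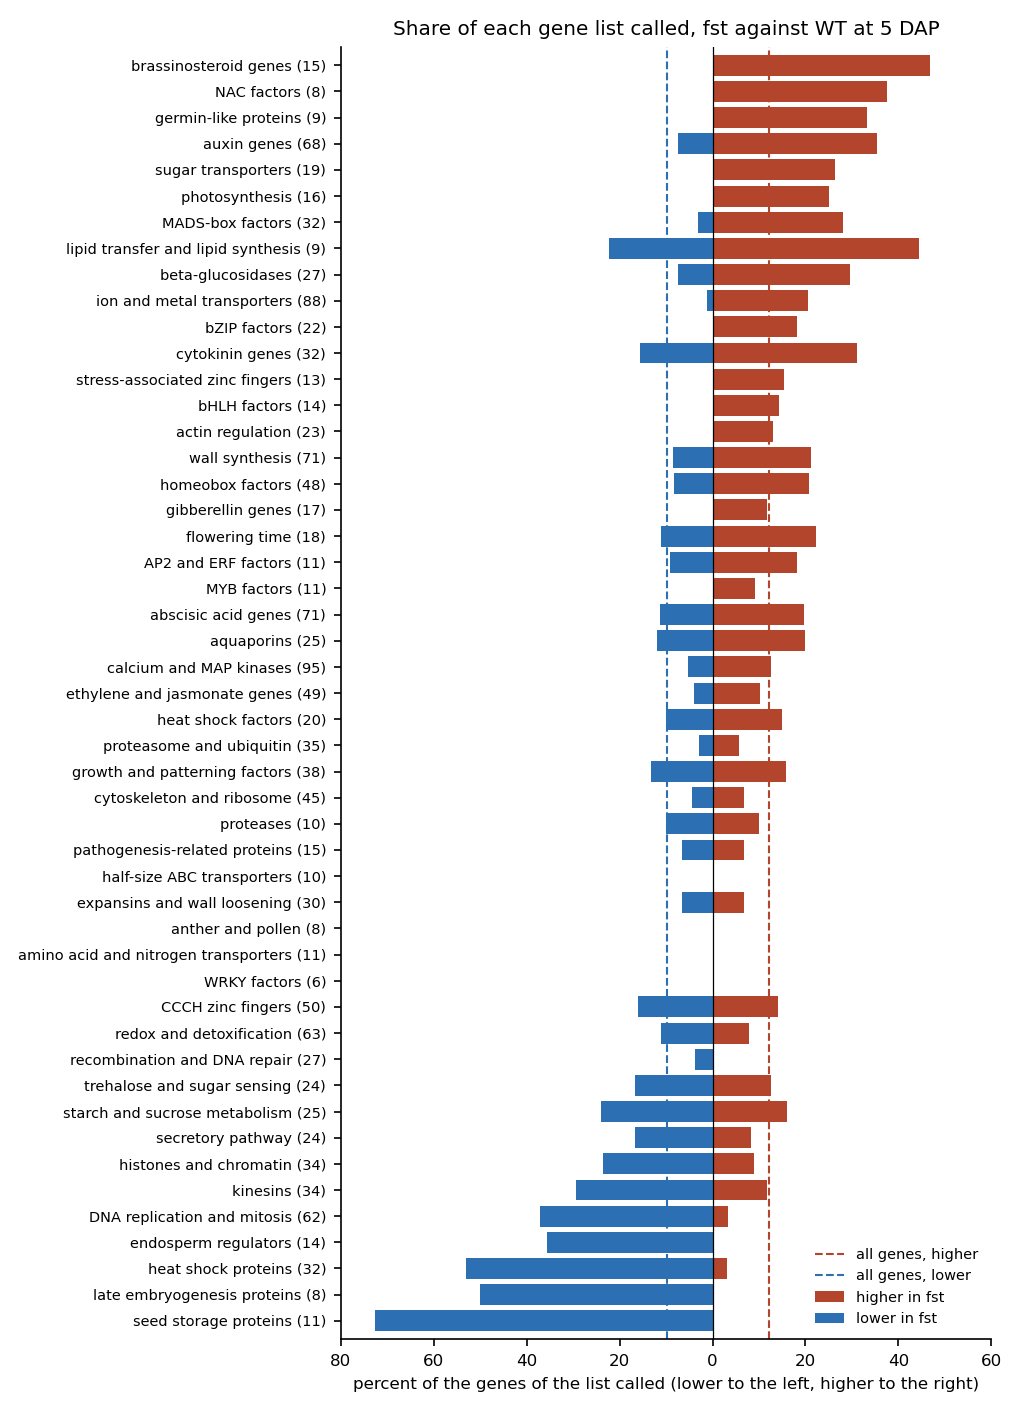
Share of the genes of each list (rows, number of genes in brackets) called lower (bars to the left) or higher (bars to the right) in fst at 5 DAP, x axis in percent; dashed lines are the shares over all genes, 9.73% lower and 12.1% higher. Seed storage, late embryogenesis and heat shock proteins reach furthest left, with shares of up to 72.7%, and brassinosteroid genes furthest right, at 46.7%.

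Seed storage genes were lower in 8 of 11 cases, with a median log2 change of -5.51. RAG1 and RAG2, seed allergens of the grain, were measured at 9.02, 10.6 and 7.93 in fst, against 28.9, 51.6 and 36.8 in WT (log2 change -2.06 ± 0.18, adjusted p = 9.51e-06) and at 35.8, 22.5 and 27.5 in fst, against 1089, 3047 and 2701 in WT (log2 change -6.21 ± 0.35, adjusted p = 2.14e-07). The probe sets of each did not agree in size, since a second one for RAG1 was not called (-0.32, adjusted p = 0.265) and the 4 for RAG2 ranged between -7.92 and -0.57. The prolamin PROLM25 gave 17.8, 21.3 and 22.5 in fst, against 219.8, 1655 and 948 in WT (log2 change -5.10 ± 0.51, adjusted p = 3.46e-05), between -5.94 without WT array 1 and -4.48 without WT array 2. Glutelins differed by probe set as well. For GLUA2, 1 probe set fell by 6.23 log2 units, at 48.6, 41.9 and 72.0 in fst, against 1917, 6287 and 5166 in WT, while its other probe set, which the list rule chose, showed 159, 139 and 235 in fst and 166, 146.5 and 187 in WT (0.06, adjusted p = 0.9). GLUB4 had no call (0.02, adjusted p = 0.957). The glutelin coding sequences are alike, so that probes can hybridise to more than 1 of them, and the falls of GLUA1, GLUA2, GLUA3 and GLUB5 are not independent. The globulin gene GLB had 1888, 1705 and 1673 in fst, against 2379, 2047 and 1996 in WT and was not called (-0.28, adjusted p = 0.0942).

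Among 25 starch and sucrose genes, 6 were lower (24.0%) and 4 higher (16.0%), against 9.73% and 12.1% over all genes. The sucrose synthases, which split sucrose in sink tissue, went both ways. OsSUS3 had signals of 1618, 1151 and 1301 in fst, against 3861, 7085 and 6350 in WT (log2 change -2.05 ± 0.22, adjusted p = 6.42e-05). OsSUS5 and OsSUS6 were higher, at 22.9, 44.9 and 55.2 in fst, against 19.2, 12.6 and 15.6 in WT (log2 change 1.30 ± 0.27, adjusted p = 0.00651) and at 32.8, 34.2 and 54.8 in fst, against 16.8, 15.2 and 15.1 in WT (log2 change 1.33 ± 0.25, adjusted p = 0.00317). Both had low signals, and the groups did not overlap. OsAGPS2, which encodes small subunits of ADP-glucose pyrophosphorylase, the enzyme that commits carbon to starch, fell to 1373, 1415 and 1576.0 in fst, against 2423, 4425 and 3576 in WT (log2 change -1.22 ± 0.17, adjusted p = 0.000509). Of 14 endosperm regulators 5 were lower. OsVP1, a B3 factor of seed maturation, had 18.03, 14.1 and 12.4 in fst, against 25.15, 52.3 and 36.8 in WT (log2 change -1.31 ± 0.22, adjusted p = 0.00188), and OsLFL1, a B3 factor like LEC2 and FUS3 of Arabidopsis, had 26.9, 16.4 and 15.5 in fst, against 50.04, 108 and 80.9 in WT (log2 change -1.999 ± 0.26, adjusted p = 0.000273). The probe set of OsLFL1 is in the study's tables. OsNF-YB3 and OsNF-YB4, subunits of the NF-Y complex, fell less, by 0.57 and 0.48 log2 units.

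Of 8 late embryogenesis genes 4 were lower and none higher. RAB21, a dehydrin that responds to abscisic acid, showed even arrays in both groups, with 324, 281 and 342 in fst, against 1055, 1055 and 1084 in WT (log2 change -1.76 ± 0.17, adjusted p = 3.46e-05). RAB16D, of the same family, had 69.3, 70.5 and 59.6 in fst, against 153, 105 and 131 in WT (log2 change -0.95 ± 0.14, adjusted p = 0.000845). RAB21 was lower before flowering too (-0.94, adjusted p = 0.00897), and its interaction with stage was not called (adjusted p = 0.0703). Osem, an early methionine-labelled type of these proteins, varied widely in WT, at 36.4, 34.6 and 19.9 in fst, against 114, 624 and 149.9 in WT (log2 change -2.91 ± 0.54, adjusted p = 0.00311).

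Genes of protein folding were a further group of falls beside the seed genes, most of them moderate. Of 32 heat shock proteins 17 were lower and 1 higher, with a median log2 change of -0.54, and leaving out any 1 array gave 16 or 17 lower. All the 13 called genes of 19 small heat shock proteins fell. The largest falls, of OsHsp23.2 (-4.59), OsHsp21.9 (-3.28) and OsHsp26.7 (-3.13), were beyond the moderate class. These 3 are in the study's tables, which hold probe sets of 5 of the 32 genes. OsHsp18.0 had signals of 1791, 1490 and 1309 in fst, against 5480, 4565 and 5100 in WT (log2 change -1.73 ± 0.12, adjusted p = 1.36e-06), and OsHsp16.9A had 3582, 4233 and 3576 in fst, against 7294, 7308 and 8147 in WT (log2 change -1.001 ± 0.10, adjusted p = 4.63e-05). HSP81-1, a member of the HSP90 family, had 844, 757 and 705 in fst, against 1959, 1931 and 2078 in WT (log2 change -1.37 ± 0.12, adjusted p = 1.28e-05). The groups did not overlap in these genes. Small heat shock genes of one class are similar in sequence and some lie in a cluster on chromosome 3, so that their probe sets may share targets. Before flowering 12 of the 32 were lower in fst. In OsHsp16.0 that earlier change was -1.58 (adjusted p = 0.000496), against -1.27 at 5 DAP, and in OsHsp18.6 it was -1.31, against -0.81.

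Heat shock factors, which switch such genes on, were called in both directions, 3 of 20 higher and 2 lower, which is close to the shares over all genes. Without WT array 1 or 3 there was 1 lower. HSFC2A rose, at 121, 135 and 112 in fst, against 42.2, 49.7 and 49.4 in WT (log2 change 1.38 ± 0.13, adjusted p = 1.95e-05), HSFA1 rose by 0.51, and HSFB2C fell to 68.7, 57.1 and 34.2 in fst, against 172, 148 and 198 in WT (log2 change -1.74 ± 0.24, adjusted p = 0.000421). In the secretory pathway, where seed proteins fold, 4 of 24 genes were lower (16.7%) and 2 higher (8.33%), against 9.73% and 12.1% over all genes. BIP1, the HSP70 chaperone of the endoplasmic reticulum, had 2140, 1898 and 1924 in fst, against 3823, 5429 and 4482 in WT (log2 change -1.19 ± 0.12, adjusted p = 4.8e-05). The protein disulfide isomerases OsPDIL1-4 and OsPDIL2-3 fell. OsPDIL2-3, which is outside the study's tables, had 263, 188 and 219.7 in fst, against 659, 992 and 829.9 in WT (log2 change -1.88 ± 0.17, adjusted p = 1.53e-05). Both higher calls, OsPDIL1-3 (0.57) and OsPDIL1-5 (0.47), were lost without fst array 3 and without WT array 1, with adjusted p of up to 0.0919.

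DNA replication and mitosis genes were a second group of moderate falls, and none is on a probe set in the study's tables. Of 62 genes 23 fell, by 0.32 to 1.76 log2 units, and 2 rose, and between 21 and 24 were lower with any 1 array left out. All 6 subunits of the MCM2 to MCM7 helicase, which unwinds DNA at replication origins, were lower, while OsMCM8 and OsMCM9, relatives outside that complex, were not called. OsMCM7 had signals of 59.8, 39.97 and 76.1 in fst, against 137, 204 and 135 in WT (log2 change -1.46 ± 0.22, adjusted p = 0.000771), OsMCM6 had 53.9, 32.7 and 60.1 in fst, against 115, 165 and 114 in WT (log2 change -1.45 ± 0.22, adjusted p = 0.000772), and OsMCM5 had 143, 69.1 and 122 in fst, against 243, 377 and 243 in WT (log2 change -1.41 ± 0.24, adjusted p = 0.00165). In each, fst array 2 was the lowest array and WT array 2 the highest.

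Other parts of the replication machinery fell as well. PCNA, the sliding clamp of the polymerases, had 998, 852 and 792 in fst, against 1481, 1795 and 1562 in WT (log2 change -0.87 ± 0.11, adjusted p = 0.000229). OsRFC3, of the clamp loader, had 357, 296 and 323 in fst, against 539.7, 538 and 549 in WT (log2 change -0.74 ± 0.10, adjusted p = 0.000315) with little spread between arrays of a genotype. The origin recognition genes OsORC3 (-1.35) and ORC5 (-1.33) fell, and 5 of 7 subunits of replication protein A, which coats single-stranded DNA, did so, led by OsRPA70b at 101, 67.4 and 89.3 in fst, against 213, 297 and 234 in WT (log2 change -1.54 ± 0.18, adjusted p = 0.00014). Of the mitotic genes, B-type cyclins fell in 3 of 4 cases, and the plant-specific mitotic kinase CDKB2-1 had 235, 120.3 and 147 in fst, against 348, 415 and 403 in WT (log2 change -1.27 ± 0.22, adjusted p = 0.00211). CenH3, the histone of the centromere, fell by 0.96 log2 units, with fst arrays between 150 and 211 and WT arrays between 320 and 383. D-type cyclins, which act at entry into the cycle, gave no fall among 9, and CYCD4-2 rose, at 399.5, 360.2 and 457 in fst, against 206, 234 and 211 in WT (log2 change 0.90 ± 0.11, adjusted p = 0.000124).

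Kinesins, motors that move along microtubules, were lower in 10 of 34 cases (29.4%) and higher in 4 (11.8%). Over all genes the shares were 9.73% and 12.1%, so the rises were near the share over all genes. Leaving out 1 array gave 7 to 10 lower. The higher count was 1 without fst array 3, WT array 1 or WT array 3, 2 without fst array 1 and 7 without fst array 2. All 3 genes of the KIN10 family fell. KIN10A had 115, 57.0 and 78.5 in fst, against 199, 265 and 271 in WT (log2 change -1.60 ± 0.29, adjusted p = 0.00311) and KIN10B had 85.3, 49.8 and 57.0 in fst, against 122, 183 and 163 in WT (log2 change -1.30 ± 0.24, adjusted p = 0.00294). KIN12C, of the kinesin-12 family that works at the phragmoplast of dividing cells, had 133, 71.4 and 110.2 in fst, against 219, 282 and 255 in WT (log2 change -1.31 ± 0.27, adjusted p = 0.00635). KIN7K went the other way, with 1017, 1188 and 1345 in fst, against 614, 672 and 740.5 in WT (log2 change 0.80 ± 0.13, adjusted p = 0.00102). In the 10 lower kinesins fst array 2 was the lowest fst array in all 10, and in the 23 lower replication genes in 20, while WT array 2 was the highest WT array in 6 and in 21.

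**Figure D4:**
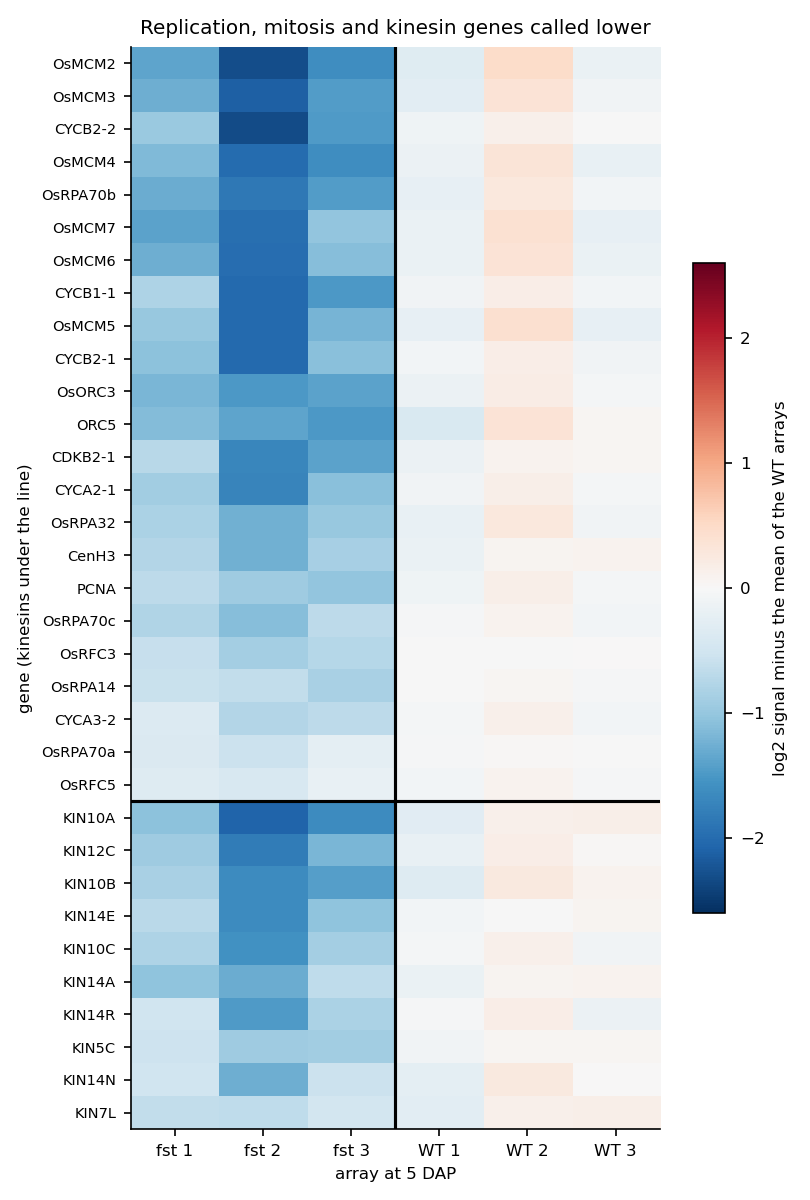
Signals of the 23 replication and mitosis genes (above the line) and 10 kinesins (below it) called lower in fst, on fst arrays 1 to 3 (left) and WT arrays 1 to 3 (right); colour is the log2 signal minus the mean of the WT arrays. Every fst cell is below the WT mean, and fst array 2 is the darkest in 20 of the 23 genes and in all 10 kinesins.

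Genes that keep and read chromatin marks split. OsMET1-2, a methyltransferase that maintains CG methylation, had 301, 177 and 265 in fst, against 579.7, 953 and 898 in WT (log2 change -1.71 ± 0.22, adjusted p = 0.000263), and OsCMT3a, which methylates CHG sites, had 58.7, 35.04 and 56.7 in fst, against 102, 129 and 120.4 in WT (log2 change -1.25 ± 0.23, adjusted p = 0.00293). Argonautes, which carry small RNAs, moved in opposite directions. OsAGO14 fell, with 265, 195 and 268 in fst, against 419, 603 and 539 in WT (log2 change -1.10 ± 0.16, adjusted p = 0.000606), while OsAGO1b (0.61) and OsAGO1c (0.54) were higher in fst. OsAGO1a was higher as well (0.52, adjusted p = 0.0173), a call lost without fst array 3, WT array 1 or WT array 2, with adjusted p of up to 0.0656. The 5 H2B histone genes measured were all lower, by 0.38 to 0.53 log2 units. H2B genes are nearly identical, so these are not 5 independent measurements, and the lower calls of the list, 8 of 34, came to 3 without WT array 2 and to 5 without fst array 3 or WT array 1. Recombination and DNA repair, a list close to replication, gave 1 lower and 0 higher of 27 in limma, with 4 at an unadjusted p under 0.05. The lower gene, OsHEI10 (-0.49), kept its call only without fst array 1, with adjusted p of up to 0.188.

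Among transcription factors, 9 of 32 genes of the MADS list were higher and 1 lower, and 8 of the 9 kept their call whichever array was left out. OsMADS13, a gene of ovule identity, rose furthest, at 1978, 2129 and 1836 in fst, against 996, 1128 and 950.3 in WT (log2 change 0.95 ± 0.11, adjusted p = 0.00014), and the related OsMADS21 had 698, 731 and 797 in fst, against 415, 558 and 341 in WT (log2 change 0.79 ± 0.18, adjusted p = 0.0119), a call lost without WT array 3 (adjusted p = 0.0576). The C-class genes OsMADS3, at 618, 660.4 and 721 in fst, against 388, 418 and 418 in WT (log2 change 0.71 ± 0.11, adjusted p = 0.00109), and OsMADS58, at 8213, 9576 and 7853 in fst, against 5686, 6237 and 5627 in WT (log2 change 0.54 ± 0.11, adjusted p = 0.00504), act in stamens and carpels. OsMADS2, a B-class gene of lodicules and stamens, had 4060, 3966 and 3678 in fst, against 2335, 2112 and 2592 in WT (log2 change 0.74 ± 0.10, adjusted p = 0.000388). OsMADS7 (0.39) and OsMADS8 (0.57), of the SEPALLATA group, and DL (0.53), a YABBY factor of carpel identity that the list also holds, rose by less than 1.5-fold. Of the genes named here OsMADS21 was also higher before flowering (0.83, adjusted p = 0.0214). Other floral organ genes, among them OsMADS1, OsMADS14, OsMADS15, OsMADS16 and OsMADS4, were not called at 5 DAP. OsMADS22, which is in the study's tables, fell, with 201, 92.5 and 116 in fst, against 385, 649 and 546 in WT (log2 change -1.99 ± 0.25, adjusted p = 0.000186).

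Homeobox genes were higher in 10 of 48 cases (20.8%) and lower in 4 (8.33%), against 12.1% and 9.73% over all genes. Of the 10 higher genes 8 were OsHox genes of the HD-Zip class. OsHox32 had 103, 102 and 160.1 in fst, against 61.2, 59.4 and 64.3 in WT (log2 change 0.95 ± 0.16, adjusted p = 0.00146), OsHox15 had 733, 637 and 817 in fst, against 408, 386 and 397 in WT (log2 change 0.87 ± 0.12, adjusted p = 0.000489) and OsHox6 had 694, 766 and 751 in fst, against 478, 363 and 440.0 in WT (log2 change 0.79 ± 0.14, adjusted p = 0.00206). The KNOX gene OSH71, of a family that acts in meristems, had 728, 719 and 879.5 in fst, against 439, 302 and 506 in WT (log2 change 0.93 ± 0.16, adjusted p = 0.00202). The homeobox gene OsTF1 fell to 694, 325 and 328 in fst, against 892, 1390 and 1000 in WT (log2 change -1.36 ± 0.27, adjusted p = 0.00477), with fst array 1 above the other fst arrays. With 1 array left out the higher calls numbered between 6 (without WT array 2) and 12 (without fst array 2), and the lower calls 3 without fst array 1 or WT array 3 and 2 otherwise. Growth-regulating factors, which promote cell division in young organs, fell in 4 of 10 cases, with OsGRF8 at 80.5, 60.2 and 110.2 in fst, against 181, 189.8 and 164 in WT (log2 change -1.13 ± 0.17, adjusted p = 0.00093) and OsGRF6 at 199, 205 and 237 in fst, against 344, 424 and 362 in WT (log2 change -0.82 ± 0.11, adjusted p = 0.00044). OsGRF7 was not called without fst array 2, WT array 1 or WT array 2, nor OsGRF10 without fst array 1, fst array 3, WT array 2 or WT array 3, with adjusted p of up to 0.16. OsGRF4 was called higher (0.44), and this call was lost without fst array 1 or any 1 of the WT arrays (up to 0.0887). Of 12 SPL factors 3 rose, and SPL4 had 269, 242 and 308 in fst, against 166, 146 and 165 in WT (log2 change 0.77 ± 0.12, adjusted p = 0.00119).

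In other families few members were called. SHAT1, an AP2 factor needed for the abscission zone of the rice spikelet, had 749, 750.2 and 919 in fst, against 424, 377 and 418 in WT (log2 change 0.98 ± 0.11, adjusted p = 9.71e-05) and was also higher before flowering (0.61, adjusted p = 0.00897). RSR1, an AP2 factor that represses starch synthesis genes in rice, had 127, 132 and 142 in fst, against 90.8, 92.5 and 84.4 in WT (log2 change 0.58 ± 0.11, adjusted p = 0.00296). Both are small rises with no overlap. DREB1A, of the group that responds to cold and drought, was lower at 5 DAP (-0.69, adjusted p = 0.00548) and before flowering (-1.24, adjusted p = 0.000404). Of 8 NAC factors 3 were higher, of which ONAC004 (0.81) kept its call with any 1 array left out. NAC010 (0.49) and OsNAC5 (0.72) were not called without fst array 1, fst array 3 or WT array 2. NAC010 was also not called without WT array 3 and OsNAC5 without WT array 1, with adjusted p of up to 0.108. In the bZIP list 4 of 22 were higher, with OsbZIP08 at 297, 275 and 424 in fst, against 154, 164 and 167 in WT (log2 change 1.01 ± 0.16, adjusted p = 0.00127), and between 2 (without WT array 2) and 5 (without WT array 1) were higher with 1 array left out. MYBS3, a repressor of sugar starvation responses, rose by 0.59 on the probe set chosen but fell by 0.37 on another. WRKY factors gave 0 calls of 6 in limma, with 1 at an unadjusted p under 0.05.

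Auxin genes were mostly higher where they were called. Of 68, 24 were higher and 5 lower, with a median log2 change of 0.29, and 17 to 20 were higher with 1 array left out. The lower calls numbered 2 without fst array 3, WT array 1 or WT array 3, and 3 without WT array 2. Of 26 AUX/IAA genes, which encode repressors that auxin destroys, 12 rose and 1 fell. IAA8 had 354, 401 and 499 in fst, against 109.6, 158 and 178 in WT (log2 change 1.51 ± 0.18, adjusted p = 0.000172), IAA18 had 716, 869 and 1125 in fst, against 414, 388 and 472 in WT (log2 change 1.07 ± 0.15, adjusted p = 0.00055), and IAA30 had 4408, 4203 and 4774 in fst, against 2278, 2855 and 2515 in WT (log2 change 0.81 ± 0.10, adjusted p = 0.000228). IAA20 fell, at 12.04, 9.77 and 11.2 in fst, against 26.6, 33.9 and 33.4 in WT (log2 change -1.50 ± 0.15, adjusted p = 3.71e-05). A second gene named IAA20 was not called (0.46, adjusted p = 0.105). Of 17 auxin response factors, the DNA-binding partners of these repressors, 7 rose and 1 fell. ARF3 had 1061, 1161 and 1313 in fst, against 563, 618 and 584 in WT (log2 change 1.00 ± 0.10, adjusted p = 3.51e-05), ARF15 rose by 0.69 and ARF22 by 0.63, whereas ARF13 had 32.8, 34.5 and 42.8 in fst, against 54.9, 62.6 and 65.0 in WT (log2 change -0.73 ± 0.13, adjusted p = 0.00272). Among transport and synthesis genes, OsPIN5a rose by 0.84, OsPIN2 by 0.77 and OsTAR2, of the tryptophan aminotransferase step, by 0.61.

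Brassinosteroid genes had the highest share of rises, 7 of 15 with none lower and a median of 0.48. D11, a cytochrome P450 of brassinosteroid synthesis, had 109, 94.7 and 154 in fst, against 49.8, 44.0 and 45.1 in WT (log2 change 1.33 ± 0.16, adjusted p = 0.000131). DWARF, the oxidase of the last steps, had 1751, 2418 and 3108 in fst, against 994, 1087 and 1127 in WT (log2 change 1.14 ± 0.16, adjusted p = 0.000576). The receptor genes OsBRI1 (0.52) and BRL1 (0.62) rose less. These 4 kept their calls whichever array was left out, and the list gave between 4 (without WT array 3) and 8 (without fst array 2) higher. Fst array 3 was the highest in D11 and DWARF, and their log2 changes without it were still called.

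Cytokinin genes were called in both directions. The 3 receptor kinases measured rose, with OsHK4 at 507, 561 and 797 in fst, against 339.7, 337 and 325 in WT (log2 change 0.87 ± 0.15, adjusted p = 0.00167), OsHK5 at 0.68 and OsHK3 at 0.54 log2 units, and 3 of 4 type-B response regulators, the transcription factors of the pathway, rose by 0.35 to 0.55. The response regulator RR5 fell, at 35.3, 41.7 and 27.8 in fst, against 75.6, 75.4 and 62.0 in WT (log2 change -1.04 ± 0.16, adjusted p = 0.00108), and so did the phosphotransfer protein OsAHP1 (-0.52). RR33 had 61.02, 27.3 and 12.6 in fst, against 125, 150.1 and 122 in WT (log2 change -2.26 ± 0.40, adjusted p = 0.00245). Of 32 genes 10 were higher and 5 lower, but 5 were higher without any 1 of the WT arrays, 6 without fst array 1 and 7 without fst array 2 or 3. OsHK3 was not called without any 1 of the WT arrays (adjusted p of up to 0.0671), RR23 without WT array 2 (0.0613), and RR21 with any array left out (up to 0.168). Of 8 LOG enzymes, which make active cytokinins, LOGL10 (0.84) rose and LOGL1 (-0.47) fell, and the rise of LOGL7 (0.32) was lost with any array left out (up to 0.181).

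Abscisic acid genes were called higher in 14 of 71 cases (19.7%) and lower in 8 (11.3%), against 12.1% and 9.73% over all genes. Phosphatases of the PP2C class made up most of the list, with 12 of 55 higher, by at most 0.69, and 5 lower. Only some PP2C genes hold the abscisic acid kinases off, and these were not separated from the rest here. OsPP2C31 had 19.5, 12.03 and 12.6 in fst, against 25.6, 57.4 and 61.3 in WT (log2 change -1.64 ± 0.30, adjusted p = 0.00265). Of 10 SAPK kinases, the family on which some PP2C phosphatases act, 2 rose, and OsSAPK9 had 1591, 1660 and 2348 in fst, against 880.5, 812 and 960.4 in WT (log2 change 1.06 ± 0.14, adjusted p = 0.00039). OsABA8ox2, which breaks the hormone down, had 352, 168 and 183 in fst, against 431, 527 and 677 in WT (log2 change -1.28 ± 0.24, adjusted p = 0.00354), and OsZEP1, of its synthesis from carotenoids, fell by 0.80. With 1 array left out the higher calls numbered between 9 (without WT array 2) and 13, the lower calls 4 without fst array 2 or WT array 3, 5 without fst array 1 and 6 or 7 otherwise. Gibberellin genes gave 2 higher of 17 (11.8%, near the share over all genes), OsGA20ox3 among them (0.65), and without fst array 3 there were 3 lower. Of 49 ethylene and jasmonate genes 5 were higher and 2 lower, both below the shares over all genes, and the ethylene receptor OsERS2 had 334, 344 and 489.5 in fst, against 234, 201 and 228 in WT (log2 change 0.80 ± 0.15, adjusted p = 0.00404).

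**Figure D5:**
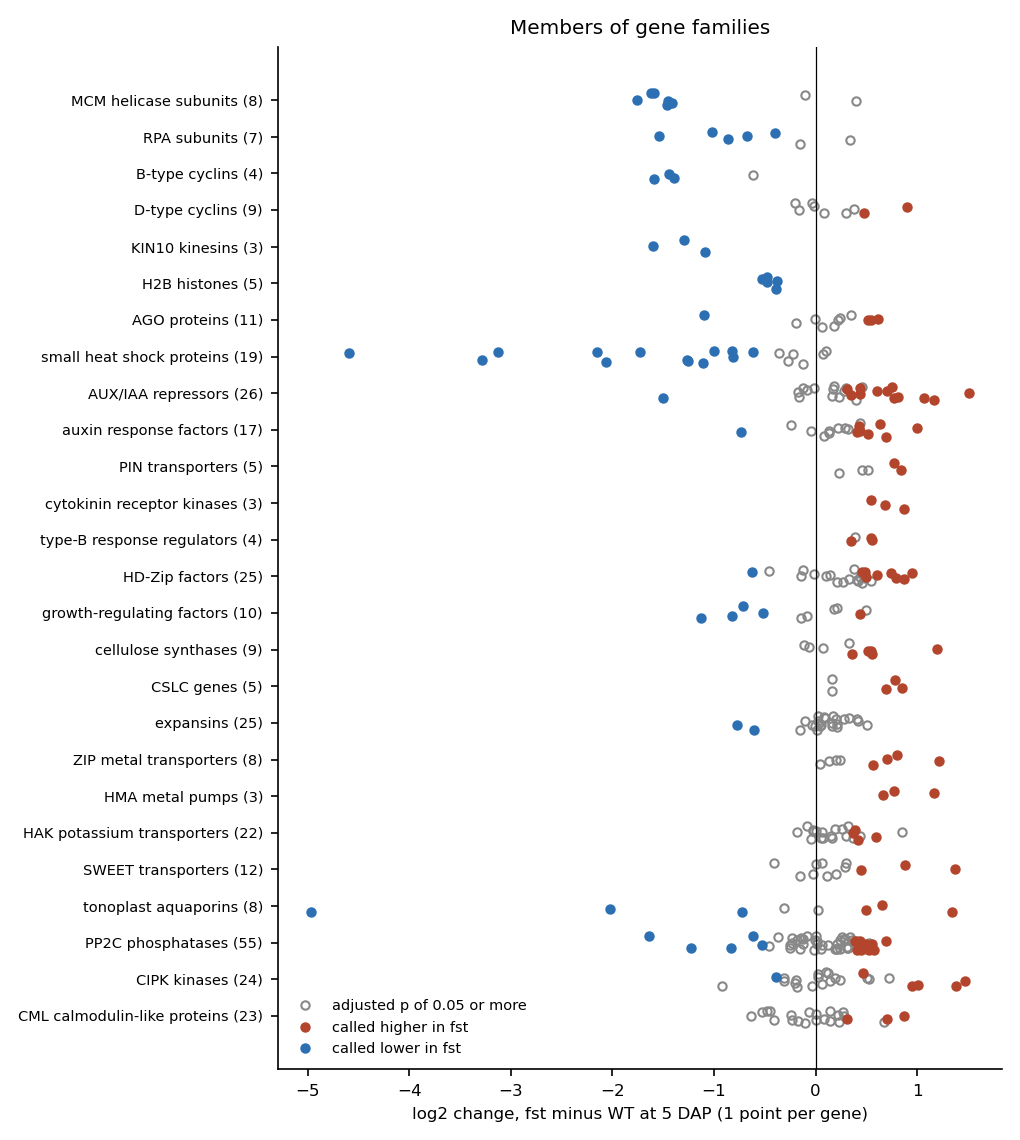
Log2 change, fst minus WT at 5 DAP (x axis), of every measured gene in 26 families (rows, number of genes in brackets); filled points were called higher or lower, open points were not. MCM, RPA, B-type cyclin, KIN10 and small heat shock genes lie to the left, down to -4.59, and AUX/IAA, HD-Zip, cellulose synthase and metal transporter genes mostly to the right, up to 1.51.

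Transporters of ions and metals were higher in 18 of 88 cases and lower in 1, with a median of 0.22. With 1 array left out the rises numbered 9 without WT array 2, 10 without WT array 3, 11 without fst array 3 and up to 17 otherwise. Beside OsNramp5, the zinc transporter OsZIP3 had 164, 142 and 214 in fst, against 66.9, 69.2 and 86.8 in WT (log2 change 1.21 ± 0.15, adjusted p = 0.000166), and OsZIP7 (0.70) and 1 of 2 genes named OsZIP1 (0.80) rose with it. The other gene named OsZIP1 was not called (0.20, adjusted p = 0.594). The 3 metal pumps of the HMA family measured were all called higher. OsHMA4, known to store copper in rice root vacuoles, had 470.5, 495 and 592 in fst, against 295, 305 and 307 in WT (log2 change 0.77 ± 0.13, adjusted p = 0.00163). OsHMA2 was dim and scattered, and its call was lost without WT array 2 (adjusted p = 0.0608, the highest over the arrays left out). The potassium channel OsAKT1 had 525, 609 and 789 in fst, against 279.9, 321 and 261 in WT (log2 change 1.14 ± 0.17, adjusted p = 0.000587), while 4 of 22 HAK potassium transporters rose by 0.37 to 0.59. Their calls were lost without fst array 3, WT array 2 or WT array 3, with adjusted p of up to 0.121. OsPHO1;2, a phosphate exporter, was the fall, at 95.2, 96.3 and 143 in fst, against 339, 469.9 and 624 in WT (log2 change -2.08 ± 0.20, adjusted p = 2.92e-05).

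Sugar transporters were called only in the direction of higher signal, in 5 of 19 genes. OsSWEET1a had 3424, 3411 and 3182 in fst, against 2039, 1766 and 1664 in WT (log2 change 0.88 ± 0.10, adjusted p = 0.000131), and OsSWEET15 had 641, 655 and 847 in fst, against 193, 248 and 431 in WT (log2 change 1.37 ± 0.23, adjusted p = 0.00165). OsSUT2, of the vacuole membrane, rose by 0.53 and TPT, which exports triose phosphates from plastids, by 0.44. Of 25 aquaporins 5 rose and 3 fell. In the tonoplast class 3 of 8 rose and 3 fell, with OsTIP2;1 at 164, 246 and 173 in fst, against 55.1, 104 and 74.6 in WT (log2 change 1.34 ± 0.23, adjusted p = 0.00179) and OsTIP3;2, of a seed type, at 17.3, 16.7 and 14.6 in fst, against 41.8, 93.4 and 72.1 in WT (log2 change -2.02 ± 0.22, adjusted p = 8.04e-05). OsTIP2;2 (0.65) and the plasma membrane gene OsPIP1;1 (0.47) were higher.

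Cell wall genes moved both ways. Of 71 genes of wall synthesis 15 were higher (21.1%) and 6 lower (8.45%), against 12.1% and 9.73% over all genes. With 1 array left out 11 to 15 were higher. Among 9 cellulose synthases 5 rose and none fell. OsCesA5 had 1344, 1684 and 2334 in fst, against 670.3, 864 and 767 in WT (log2 change 1.19 ± 0.17, adjusted p = 0.000637), while the rises of OsCesA1, OsCesA3, OsCesA6 and OsCesA8 were of 0.36 to 0.55, and none of these 4 was called without fst array 3, WT array 2 or WT array 3, with adjusted p of up to 0.152. The genes of secondary walls, OsCesA4, OsCesA7 and OsCesA9, were not called. OsCslF6, which makes the mixed-linkage glucan of grass walls, had 610.5, 792 and 784 in fst, against 269.6, 369.8 and 422 in WT (log2 change 1.06 ± 0.18, adjusted p = 0.00212), and 3 of 5 CSLC genes rose, led by OsCslC7 at 548, 662 and 526 in fst, against 302, 356 and 305 in WT (log2 change 0.85 ± 0.14, adjusted p = 0.00122). Endoglucanases of one family went in opposite directions, with OsGLU15 at 64.3, 53.1 and 60.6 in fst, against 38.4, 27.5 and 22.6 in WT (log2 change 1.04 ± 0.18, adjusted p = 0.00204) and OsGLU13 at 297, 258 and 203 in fst, against 692, 829 and 786 in WT (log2 change -1.62 ± 0.14, adjusted p = 1.28e-05).

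Of 30 expansins and wall-loosening enzymes 2 were higher and 2 lower, 6.67% each and below the shares over all genes. OsEXLA4, an expansin-like gene, had 574, 738 and 789.5 in fst, against 199.9, 185 and 215 in WT (log2 change 1.80 ± 0.23, adjusted p = 0.000217) and OsXTH8, which cuts and joins xyloglucan, had 1233, 1346 and 1232 in fst, against 514, 625 and 524 in WT (log2 change 1.20 ± 0.28, adjusted p = 0.0135). None of 25 expansins proper rose, and OsEXPA6 fell to 437, 522 and 382 in fst, against 697, 841 and 741 in WT (log2 change -0.77 ± 0.15, adjusted p = 0.00466). OsPMEI8, an inhibitor of pectin methylesterase, was among the moderate falls with the smallest adjusted p, at 99.4, 90.1 and 77.5 in fst, against 285, 412 and 299 in WT (log2 change -1.89 ± 0.19, adjusted p = 3.58e-05).

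Of 95 genes of calcium and MAP kinase signalling 12 rose (12.6%, near the 12.1% over all genes) and 5 fell (5.26%). Leaving out 1 array gave 9 to 14 rises, and 3 fell without fst array 2 or WT array 3. The rises were mostly CIPK kinases and their calcium sensors of the CBL family, which together control ion transporters. OsCIPK05 had 97.9, 111 and 167 in fst, against 43.1, 52.0 and 38.2 in WT (log2 change 1.47 ± 0.18, adjusted p = 0.00019), OsCIPK01 had 1010, 1084 and 1466 in fst, against 441, 437 and 472 in WT (log2 change 1.38 ± 0.14, adjusted p = 3.76e-05) and OsCIPK18 had 918, 944 and 1216 in fst, against 494, 541 and 486 in WT (log2 change 1.01 ± 0.11, adjusted p = 8.57e-05). Fst array 3 was the highest fst array in 9 of the 12. CBL10 (1.02) and CBL4 (0.82) were higher, CBL6 and 1 of 2 genes named CBL2 lower. The calcium-dependent kinases OsCPK21, at 42.7, 23.3 and 26.4 in fst, against 90.3, 132 and 107 in WT (log2 change -1.87 ± 0.28, adjusted p = 0.000706), and OsCPK23, at 1155, 1069 and 1070 in fst, against 1683, 3966 and 3485 in WT (log2 change -1.38 ± 0.25, adjusted p = 0.00261), fell.

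Trehalose-6-phosphate, a signal of sugar supply, is removed by phosphatases of the TPP family, and its members went both ways. OsTPP3 had 166, 96.7 and 87.6 in fst, against 542, 849.9 and 720.4 in WT (log2 change -2.63 ± 0.31, adjusted p = 0.000119), OsTPP4 had 243, 282 and 316 in fst, against 112, 130.5 and 119 in WT (log2 change 1.21 ± 0.11, adjusted p = 1.53e-05) and OsTPP2 had 132, 167 and 258 in fst, against 69.95, 83.1 and 74.3 in WT (log2 change 1.24 ± 0.23, adjusted p = 0.00293). The other 6 members were not called. Of the hexokinases HXK3 rose by 0.85, while HXK6 (-0.54) and 1 of 2 genes named HXK2 (-0.34) were called lower. The call of HXK6 was lost without WT array 3 (0.0526), and that of HXK2 without any 1 array except fst array 3 (up to 0.174).

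Germin-like proteins, secreted proteins of the cupin fold, rose in 3 of 9 cases and fell in none. OsGER5, which the study's tables leave out, had 152, 156 and 109.7 in fst, against 64.7, 73.4 and 61.7 in WT (log2 change 1.05 ± 0.16, adjusted p = 0.000763). OsGER1 and OsGER2, which have neighbouring locus numbers and may share probes, rose by 2.44 and 2.56. Beta-glucosidases rose in 8 of 27 cases and fell in 2, with BGLU27 at 1950, 1546 and 2115 in fst, against 863, 936 and 785 in WT (log2 change 1.11 ± 0.12, adjusted p = 7.87e-05), but only 3 rose without fst array 3, 4 without WT array 1 or 2 and 5 without WT array 3. CCCH zinc finger proteins went both ways, with 8 of 50 lower (16.0%, against 9.73% over all genes) and 7 higher, near the 12.1% over all genes. The falls included OsC3H60 at 99.6, 114 and 167 in fst, against 311, 269 and 336 in WT (log2 change -1.30 ± 0.17, adjusted p = 0.000289) and OsC3H18 at 567, 477 and 598 in fst, against 990.4, 973 and 1113 in WT (log2 change -0.91 ± 0.12, adjusted p = 0.000368). The 7 rises of this family, of at most 0.68, came to 0 without WT array 1, 2 without WT array 2, 3 without fst array 3 and 4 without WT array 3.

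Redox genes gave 5 rises (7.94%) and 7 falls (11.1%) of 63, below and near the 12.1% and 9.73% over all genes. There were 2 rises without fst array 1, WT array 2 or WT array 3. The peroxidase PRX112 had 6767, 8818 and 8375 in fst, against 3678, 4123 and 4164 in WT (log2 change 0.99 ± 0.21, adjusted p = 0.00715) and the glutaredoxin GRXS3 had 97.4, 114 and 93.1 in fst, against 207, 254 and 223 in WT (log2 change -1.17 ± 0.11, adjusted p = 2.99e-05). Of 9 lipid genes 4 rose and 2 fell. LTP-2, a lipid transfer protein, fell furthest, at 389, 477 and 466 in fst, against 1849, 4076 and 3491 in WT (log2 change -2.75 ± 0.27, adjusted p = 2.99e-05), and OsSSI2, a desaturase, was called at -0.54, though not without fst array 2, WT array 2 or WT array 3 (up to 0.0961). The rises included OsKCS20, an enzyme of very long fatty acid synthesis, at 996, 1150 and 848 in fst, against 413, 448 and 398 in WT (log2 change 1.24 ± 0.14, adjusted p = 9.06e-05). The aspartic protease AP25 had 4408, 3545 and 3647 in fst, against 1331, 1924 and 1565 in WT (log2 change 1.28 ± 0.17, adjusted p = 0.000263). OsTUB8, a beta-tubulin, had 1497, 1653 and 1220 in fst, against 684, 753 and 751 in WT (log2 change 0.99 ± 0.13, adjusted p = 0.000368), and OsADF5, which cuts actin filaments, rose by 0.75. In the flowering list OsPRR95, of the clock, fell evenly, at 1467, 1178 and 1301 in fst, against 2478, 2512 and 2374 in WT (log2 change -0.91 ± 0.10, adjusted p = 7.81e-05), and OsMFT1 fell by 1.64, while both phytochrome genes called, PHYA (0.56) and PHYB (0.55), rose. Os-RSZ21a, a splicing factor of the SR class, had 1039, 856 and 779.7 in fst, against 2208, 2304 and 2233 in WT (log2 change -1.34 ± 0.11, adjusted p = 5.32e-06).

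Besides the WRKY factors, some lists held no call in limma. These were the 11 amino acid and nitrogen transporters, with 2 at an unadjusted p under 0.05, the 10 transporters of the ABCG group, with 1, and the 8 anther and pollen genes, with 0. Among 35 genes of the proteasome and ubiquitin 2 were higher and 1 lower, and among 45 of the cytoskeleton and ribosome 3 were higher and 2 lower, both below the shares over all genes. Of 16 photosynthesis genes 4 rose and none fell, with RBCS, a small subunit of Rubisco, at 5056, 5411 and 4960 in fst, against 3149, 3745 and 3276 in WT (log2 change 0.60 ± 0.11, adjusted p = 0.00272), although the list's median change was -0.03. With 1 array left out, 2 or 3 of these rises were called, 2 of them without fst array 1 or any WT array.

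Genes with several probe sets offered a check within the arrays. Of 3444 such genes, 341 had 2 or more called probe sets, which shared a direction in 322 (94.4%) and opposed each other in 19. A further 695 had only 1 called probe set, and the share of 94.4% does not cover them. LOC4333210 was the widest of the 19, with 11.96, 15.6 and 11.2 in fst and 917, 633 and 739.8 in WT on 1 probe set (-5.88), and with 551, 656 and 695 in fst and 234, 248 and 253 in WT on the other (1.37). LOC4329532 likewise fell by 2.08 on 1 probe set and rose by 0.47 on another. These genes were singled out after their values were seen. The called genes were spread over the genome, with 9.79% to 13.7% of the genes of a chromosome higher and 8.75% to 10.9% lower.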

How the data were processed

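The authors hybridised 12 RNA pools, 3 for each genotype and stage, to Affymetrix rice arrays, and the deposited table holds their RMA signals as linear intensity values per probe set, made in Affymetrix Expression Console (the sources used here name no version). The methods name signal ratios and no test. Here the log2 intensity was fitted with limma 3.58.1 in R 4.3.3 (lmFit, eBayes), with a mean for each of 4 groups over all 12 arrays, 8 residual degrees of freedom and Benjamini-Hochberg adjustment over 57258 probe sets; 123 AFFX controls were left out. Groups and replicate numbers came from the sample titles. Array number and not read depth limits the precision here, and no array batch is labelled. Genes were named from the platform annotation and RefSeq assembly GCF_034140825.1, of which only names and chromosomes were used.

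Members and lists were chosen with earlier results of these data known. Of the 49 lists, 39 were written before the files were opened and 10 after the gene names, but not the values, had been seen. Genes named are FST; the 10 largest rises and 10 largest falls outside the study's tables with 1 listed gene, adjusted p under 0.05 and separate arrays; the 10 rises and 10 falls of 1.5- to 4-fold with the smallest adjusted p; and up to 3 members of each list. Those list members also had to have adjusted p under 0.05 and separate arrays. Being outside the study's tables was judged by probe set and not by gene. Further members named in the text were chosen after their values were seen. Simulated data with 57258 probe sets had independent noise and 33 or 34 probe sets changed for each size and direction. Rises of 1 log2 unit were found in 85.3% and falls in 84.8%, rises of 0.585 in 14.7% and falls in 42.4%, with 6 false calls. The adjustment depends on the share of changed probe sets. That share was far smaller there than the 11.6% called here, so these rates do not carry over to the real comparison. Alternatives were other scalings, filters, probe set choices, models and thresholds, and leaving out each array.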

Additional observations from a re-analysis of the deposited data

Results flagged for a closer look

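For 8 of the 10 largest rises outside the study's tables, the change at 5 DAP differed from that before flowering in limma's interaction test, adjusted over all probe sets. The difference, in log2 units, was 3.12 for LOC4325422 (adjusted p = 0.0015), 1.58 for LOC4324344 (0.000584), 2.25 for LOC4347962 (4.46e-05), 2.55 for LOC4336904 (0.000935), 2.2 for LOC4332309 (0.000876), 2.55 for LOC4350320 (0.0187), 1.69 for LOC4330554 (4.62e-05) and 1.94 for LOC4326573 (0.00137). In none of the 8 was the change before flowering itself called. These genes were chosen for their change at 5 DAP, which is part of the difference tested, so the p-values are no independent evidence that the change depends on stage. LOC4324968 and LOC4349982 did not pass that test (adjusted p = 0.151 and 0.0883).

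A further 5 genes, singled out after their values were seen, were called in opposite directions at the 2 stages, and the same limit holds for their p-values. The endoglucanases OsGLU13 and OsGLU8 were lower in fst at 5 DAP but higher before flowering, by 1.52 and 1.55, with differences of -3.14 (adjusted p = 2.27e-06) and -3.32 (adjusted p = 0.000303). OsCPK21 (earlier change 1.08, difference -2.95, adjusted p = 0.000877) and OsAGO14 (0.61, -1.71, adjusted p = 0.000851) followed the same order. IAA14 was higher at 5 DAP and lower before flowering (-0.79), with a difference of 1.95 (adjusted p = 0.000382).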

How the results depend on the processing

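Of the 158 genes and probe sets named by rule, 132 kept their call and direction under every alternative tried and 24 lost the call at the 0.05 threshold under at least 1. FST, which was not called, had a change of -0.11 with all arrays, between -0.18 without fst array 1 and 0.01 without fst array 2. With 1 array left out, called probe sets numbered 4636 to 6082, those of 4-fold or more 328 to 452, those of 1.5- to 4-fold 3185 to 3982, list members 289 to 353, the rises passing the interaction test 8 in each case, and agreement of probe sets 94.0% to 96.9%. At an adjusted p under 0.01, 3569 probe sets and 242 list members were called. With 1 probe set per gene tested, 184 were called at 4-fold or more and 2205 at 1.5- to 4-fold, since fewer probe sets were tested. Without probe sets that can bind several transcripts, agreement was 88.0%. Centring the arrays on 1 median left falls as 40.8% of calls, against 46.5%, and shifted the median change by 0.037. The 6 arrays of 5 DAP alone gave 4598 calls and array weights 7971.

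Arrays with the same replicate number did not deviate together (correlations of -0.078, -0.025 and 0.069), so the numbers were not taken as pairs. With the replicate block, 5736 probe sets were called, 372 of them at 4-fold or more and 3525 at 1.5- to 4-fold, with 337 list members, 8 rises in the interaction test and 95.1% agreement.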
